A study of Arabidopsis thaliana with 48 samples.

Results

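Late responders to a quinone were followed in whole seedlings of Arabidopsis thaliana: 86 of 33602 genes whose mRNA was higher with the quinone at 6 h, and not at 0.5 or 1 h, in the wild type. They were chosen by measured values. R, the response of a gene, is log2(mean CPM + 1) with the quinone minus the same with solvent, where CPM is the gene's count scaled to a common library total, and genes with R of at least 0.6 at 6 h and under 0.35 at both 0.5 and 1 h were selected on the wild-type libraries. A further 214 genes met the 6 h condition but were past 0.35 at 0.5 or 1 h. The wild-type values at 0.5, 1 and 6 h therefore describe how the genes were chosen and carry no test, whereas the mutant libraries and all 0 h libraries were not used in the choice and were tested.

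The quinone was 2,6-dimethoxy-1,4-benzoquinone (DMBQ), a compound related to breakdown products of lignin that parasitic plants use as a signal of a host root. CARD1, also named HPCA1, is a leucine-rich repeat receptor kinase needed for quinone and hydrogen peroxide sensing in Arabidopsis. Plants commonly answer a reactive quinone with detoxifying enzymes. The best known genes described here make hydroxycinnamates, the precursors of lignin and of many soluble phenolics, from phenylalanine.

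Seedlings of ecotype Col-0 that were 7 days old and grown in liquid received 5 µM DMBQ or an equal volume of the solvent DMSO, and were sampled at 0, 0.5, 1 and 6 h. WT, the wild-type line, carries the calcium reporter aequorin, and card1 is the allele card1-2 in that same aequorin line, so both genotypes carry the reporter and the mutant is represented by 1 allele. Each of the 16 combinations of genotype, agent and time had 3 libraries, 48 in all. Whether these came from separate cultures is not stated in the labels, and p-values therefore cover only the scatter among libraries, possibly a technical one. RNA came from whole seedlings, in which more cells of a type and more RNA per cell cannot be told apart.

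Libraries held 4764682 to 14492051 gene counts (median 8489009). CARD1 (AT5G49760) was at 84.9 to 108.5 CPM in the 3 WT DMSO libraries at 6 h and at 28.4 to 35.6 CPM in the 3 card1 DMSO libraries, so reads of the mutated gene were fewer but present. Summed levels of 10 photosynthetic genes that mark the shoot were 33760 to 35950 CPM in card1 DMSO and 33310 to 36170 CPM in card1 DMBQ at 6 h, and none of the 10 was called. Summed levels of 10 root markers were 169 to 181 CPM in card1 DMSO and 154 to 163 CPM in card1 DMBQ at 6 h, and none of these markers was at 0. In WT at 6 h the root sum was 193 to 294 CPM with DMSO and 204 to 209 CPM with DMBQ. The part of these sums in the results was not tested.

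In WT the chosen genes had a median R of 0.01 at 0.5 h, 0.05 at 1 h and 0.73 at 6 h, where R ran from 0.60 to 2.19. At 6 h all 3 DMBQ libraries lay above all 3 DMSO libraries for 76 of the 86 genes, 70 of them among the genes that passed the filter on low counts, against 8.85% of all genes tested. In the same WT libraries 31 members were called higher, against 1.02% of all genes. Both counts follow from the choice and nothing is read from them. The members just inside the 6 h threshold were U3D, a small nucleolar RNA, at 0.6004, AT4G15765 at 0.6006 and AT2G39530 at 0.6009. AT5G61660 at 0.5998, AT2G01008 at 0.5994 and FRK1, a receptor kinase induced by bacterial peptides, at 0.5994 lay just outside.

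Depth differed widely among the members. Mean levels over the 48 libraries ran from 0.0862 to 963 CPM (median 3.29), with 37 genes at 5 CPM or more, 28 at 1 to 5 CPM and 21 under 1 CPM. Of the 86 genes, 76 passed the filter on low counts, and 2 of these, CYP71A12 and LAF1, passed only through the WT DMBQ libraries at 6 h. The other 10 were not tested. Some low members rested on few libraries: SAE1B (AT5G50680) held 4.25, 0 and 4.06 CPM in the WT DMBQ libraries at 6 h and no reads in the 9 other libraries of that time, and its annotated symbol is shared with a second gene, so its counts are uncertain. AT4G09200 held 3.33 CPM in 1 of the WT DMBQ libraries and no reads in the other two. These 2 genes were picked after their values were seen.

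**Figure D1:**
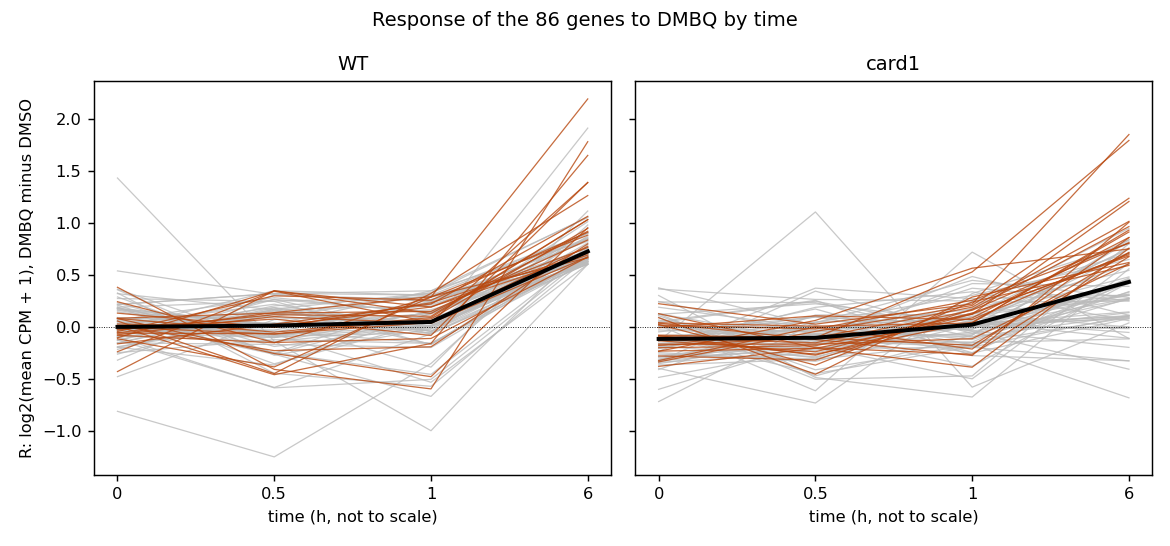
R of each of the 86 genes (y axis, log2 units) at 0, 0.5, 1 and 6 h (x axis, equally spaced) in WT (left) and card1 (right), with 1 thin line per gene and the median in black. Orange lines are the 23 genes called in card1 at 6 h, and the median at 6 h was 0.73 in WT and 0.43 in card1.

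In card1 at 6 h, libraries that played no part in the choice, 23 of the 76 members tested rose with DMBQ and none fell, against 0.832% of all 19839 genes called higher (edgeR's quasi-likelihood test, Benjamini-Hochberg adjusted p under 0.05, 3 against 3 libraries). Of the 211 tested genes that met the 6 h condition in WT after an earlier rise, 84 were called higher. Over all 86 genes the median R in card1 was 0.43, against -0.01 over all genes tested, with 73 values above 0 and 12 below. R reached 0.6 for 35 of the 86 genes, and 33 of them met the whole rule when it was applied to card1. Over all genes deposited, 90 met the rule in card1, so the genes that met it in both genotypes were 38.4% of the WT set and 36.7% of the card1 set. Called genes included enzymes of phenylpropanoid and oxylipin synthesis, nitrilases, protease inhibitors and nutrient transporters. The count depended on single libraries: it was 15 without card1 DMSO replicate 1 and 14 without card1 DMBQ replicate 3.

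The values in card1 are given by the level of the genes. Since R of at least 0.6 in WT was the condition of choice, genes with few reads that were chosen on scatter would tend to lie lower in libraries not used for the choice, so the comparison of card1 with WT in each class is a description with no test. Among the 37 genes at 5 CPM or more the median R at 6 h was 0.71 in WT and 0.65 in card1, and 21 of them reached 0.6 in card1. Among the 28 genes at 1 to 5 CPM the card1 median was 0.38 and 11 reached 0.6. Among the 21 genes under 1 CPM the medians were 0.75 in WT and 0.09 in card1, and 3 reached 0.6. R at 6 h was larger in WT for 74 genes and in card1 for 12, a split that the choice on WT values favours and that was not tested.

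**Figure D2:**
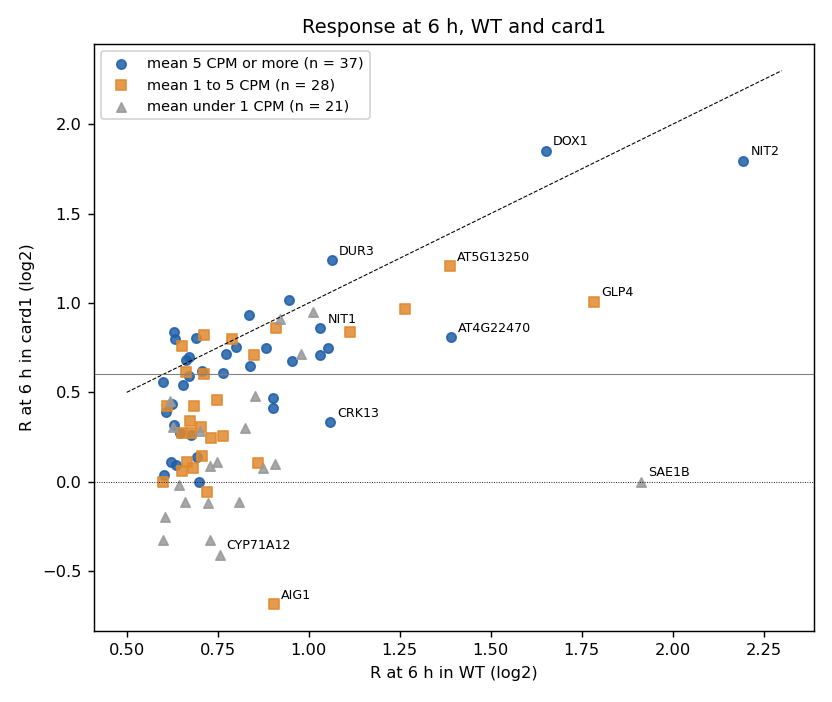
R at 6 h in WT (x axis) against R at 6 h in card1 (y axis), both in log2 units, with 1 point per gene, coloured by mean level over the 48 libraries. The dashed line marks equal values and the grey line R of 0.6 in card1, which 21 of the 37 genes at 5 CPM or more and 3 of the 21 genes under 1 CPM reached.

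The members listed for monolignol synthesis were 3 consecutive enzymes, C4H, 4CL1 and HCT. C4H is the P450 that hydroxylates cinnamate, and 4CL1 activates 4-coumarate as its CoA ester. HCT moves that coumaroyl group onto shikimate on the way to monolignols. All 3 rose in card1 at 6 h by 0.69 to 0.94 on the log2 scale. HCT (AT5G48930) was at 98.3, 110 and 102 CPM in the card1 DMSO libraries and at 163, 192 and 189 CPM with DMBQ. In WT it was at 98.4, 101 and 98.1 CPM with DMSO and at 149, 173 and 160 CPM with DMBQ. The groups did not overlap in either genotype, and the card1 difference was 0.81 ± 0.10 (log2 ± SE from the test statistic, edgeR adjusted p = 6.73e-07, n = 3 against 3).

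4CL1 (AT1G51680) was at 72.0, 72.2 and 65.1 CPM in card1 with DMSO and at 116, 142 and 144 CPM with DMBQ. The WT libraries held 56.7, 65.6 and 65.0 CPM with DMSO and 104, 113 and 120 CPM with DMBQ. Every DMBQ library of both genotypes lay above every DMSO library of both, and the card1 difference was 0.94 ± 0.12 (log2 ± SE, edgeR adjusted p = 8.72e-07). C4H (AT2G30490) was at 160, 144 and 186 CPM in card1 with DMSO and at 241, 243 and 302 CPM with DMBQ. The WT libraries held 179, 188 and 212 CPM with DMSO and 301, 300 and 318 CPM with DMBQ. Again no DMSO library reached a DMBQ library, and the card1 difference was 0.69 ± 0.12 (log2 ± SE, edgeR adjusted p = 2.86e-04).

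Of the 18 genes listed for monolignol synthesis, all tested, 11 rose and none fell in card1 at 6 h, with a median log2 fold change of 0.53 against -0.01 over all genes tested. The 15 genes of the list outside the chosen set were left out of it for different reasons. PAL1 and CAD5, which encode phenylalanine ammonia-lyase and cinnamyl alcohol dehydrogenase at the first and last steps, were past the early threshold in WT, with R of 0.46 and 0.65 at 0.5 h, 1.13 and 1.32 at 1 h and 1.68 and 2.22 at 6 h. In card1 at 6 h PAL1 rose by 1.83 ± 0.17 (edgeR adjusted p = 1.09e-09) and CAD5 by 2.24 ± 0.16 on the log2 scale (edgeR adjusted p = 1.12e-12). Others were late in WT but under 0.6 at 6 h, among them PAL2 at 0.52, CCoAOMT1, the methyltransferase of caffeoyl-CoA, at 0.56 and FAH1, ferulate 5-hydroxylase, at 0.53. In card1 at 6 h PAL2 rose by 0.65 ± 0.12 (edgeR adjusted p = 0.00127). CCoAOMT1 rose by 0.62 ± 0.10 (edgeR adjusted p = 1.71e-04). FAH1 rose by 0.59 ± 0.13 (edgeR adjusted p = 0.0095). LysoPL2, the annotation's name for caffeoyl shikimate esterase, rose by 0.43 and ATCAD4 by 0.46 (edgeR adjusted p = 0.00199 and 0.0347). PAL4 rose by 1.37 ± 0.15 in card1 (edgeR adjusted p = 2.28e-08), with R of 0.44 in WT. The other 7 list genes, PAL3, 4CL2, 4CL5, CYP98A3, CCR1, CCR2 and OMT1, were at 0.02 to 0.29 in card1 and were not called.

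**Figure D3:**
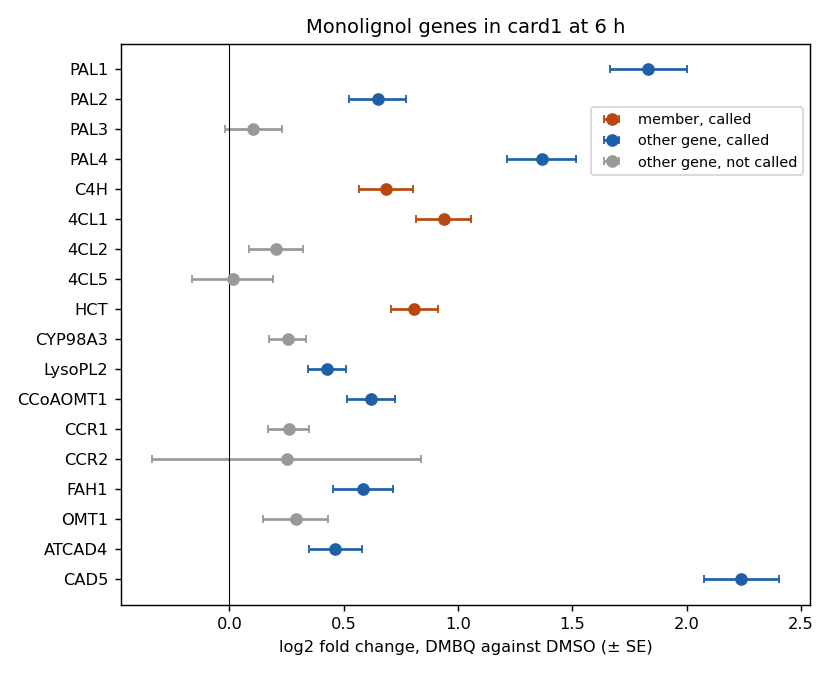
Log2 fold change with DMBQ in card1 at 6 h (x axis, bars are SE) for the 18 genes listed for monolignol synthesis (y axis), from 3 against 3 libraries. The 3 chosen genes (orange) lie at 0.69 to 0.94, below PAL1, PAL4 and CAD5, and grey genes were not called.

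Lists that lead into or out of this pathway follow, and no test compared the lists with each other. In card1 at 6 h, 3 of 15 genes of the shikimate pathway and phenylalanine synthesis rose and none fell (median log2 0.20), as did 4 of 12 genes of the methyl cycle and folate (median 0.25). Of 9 laccases and lignin peroxidases tested, 1 rose, PER4, and the laccases IRX12, LAC11 and LAC17 were at -0.39, -0.63 and -0.20 without a call. None of 11 genes of flavonoid and anthocyanin synthesis and none of 18 of suberin and the Casparian strip was called, and 1 of 15 xylem and secondary wall genes, XND1, was. In WT at 6 h the median log2 fold change of the xylem and secondary wall list was -0.55, against -0.20 in card1, and that of the monolignol list was 0.49. R in WT at 6 h was -0.93 for LAC11 and -0.80 for LAC17.

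HCT and TI1, a trypsin inhibitor gene described below, were the only members among 78 scanned whose 250 bases upstream of the annotated gene start hold AC element II, a MYB-binding motif of lignin genes. They are shown for that reason, together with AT5G13250, a neighbour gene described below whose window holds the W-box, the WRKY-binding motif, at 2 places. The sequences are RefSeq's TAIR10.1, 5′ to 3′ on the gene's strand, with matches in capitals: chr5:19838236-19838485 (minus strand) for HCT, chr2:18066710-18066959 (plus strand) for TI1 and chr5:4233906-4234155 (plus strand) for AT5G13250.
HCT: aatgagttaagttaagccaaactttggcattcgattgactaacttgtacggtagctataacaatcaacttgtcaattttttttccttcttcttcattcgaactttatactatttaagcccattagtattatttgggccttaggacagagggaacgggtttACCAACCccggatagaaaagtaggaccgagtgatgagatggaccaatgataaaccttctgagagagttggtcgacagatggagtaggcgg
TI1: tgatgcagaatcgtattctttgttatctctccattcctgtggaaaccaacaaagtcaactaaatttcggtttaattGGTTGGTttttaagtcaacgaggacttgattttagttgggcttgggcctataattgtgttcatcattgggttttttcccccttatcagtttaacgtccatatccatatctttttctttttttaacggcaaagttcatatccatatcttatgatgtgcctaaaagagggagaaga
AT5G13250: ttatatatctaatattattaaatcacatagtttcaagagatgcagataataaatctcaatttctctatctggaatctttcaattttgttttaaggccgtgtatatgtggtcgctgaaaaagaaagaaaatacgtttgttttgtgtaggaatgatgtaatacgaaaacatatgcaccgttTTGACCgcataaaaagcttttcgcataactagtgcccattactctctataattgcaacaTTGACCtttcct

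Motif shares in the 78 member windows follow, each beside its share in 26711 windows of all genes, and the differences were not tested. These are descriptions of letters, on both strands, and not of binding. AC element II (ACCAACC) was in 2.56% of member windows and 2.71% of all windows, and AC element I (ACCTACC) in 0 of 78 and 1.16%. The W-box in the form TTGACC was in 11.5% and 12.2%, and the TGA motif (TGACG) in 20.5% and 18.6%. The G-box (CACGTG) was in a smaller share of member windows, 2.56% against 6.58%. The evening element (AATATCT), present in the C4H window, was in 10.3% and 10.1%. The GCC box (GCCGCC) was in 2.56% and 1.85%, and the NAC core (CACGCA) in 3.85% and 3.17%. None of these motifs overlaps another in the windows printed.

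NIT1 and NIT2 are nitrilases, enzymes that hydrolyse nitriles and can make the auxin indole-3-acetic acid from indole-3-acetonitrile. They are neighbours on chromosome 3 (TAIR10.1, NIT2 at chr3:15983199-15985535 and NIT1 at chr3:15986624-15989505, both on the plus strand) with 1088 bases between them, and both rose in card1 at 6 h. NIT1 (AT3G44310) was at 369, 367 and 418 CPM in the card1 DMSO libraries and at 609, 704 and 782 CPM with DMBQ. The WT libraries held 357, 335 and 333 CPM with DMSO and 633, 770 and 695 CPM with DMBQ. All DMBQ libraries of both genotypes lay above all DMSO libraries, and the card1 difference was 0.86 ± 0.13 (log2 ± SE, edgeR adjusted p = 2.05e-05).

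NIT2 (AT3G44300) had the largest R of the 86 genes at 6 h in WT, 2.19. Its WT libraries held 1.47, 2.46 and 2.36 CPM with DMSO and 8.50, 11.0 and 20.03 CPM with DMBQ. In card1 the DMSO libraries held 4.18, 2.72 and 4.41 CPM and the DMBQ libraries 7.81, 12.6 and 26.3 CPM. Replicate 3 was the highest of the DMBQ libraries in both genotypes. The card1 difference was 2.07 ± 0.40 (log2 ± SE, edgeR adjusted p = 0.00221), and the call was lost without card1 DMBQ replicate 3, at 1.44, and without card1 DMSO replicate 2, at 1.83. The other nitrilases were not members: NIT3 was at 0.07 and NIT4 at 0.35 in card1 at 6 h, neither called. NIT1 and NIT2 are close paralogs, so counts are uncertain where reads match both.

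**Figure D4:**
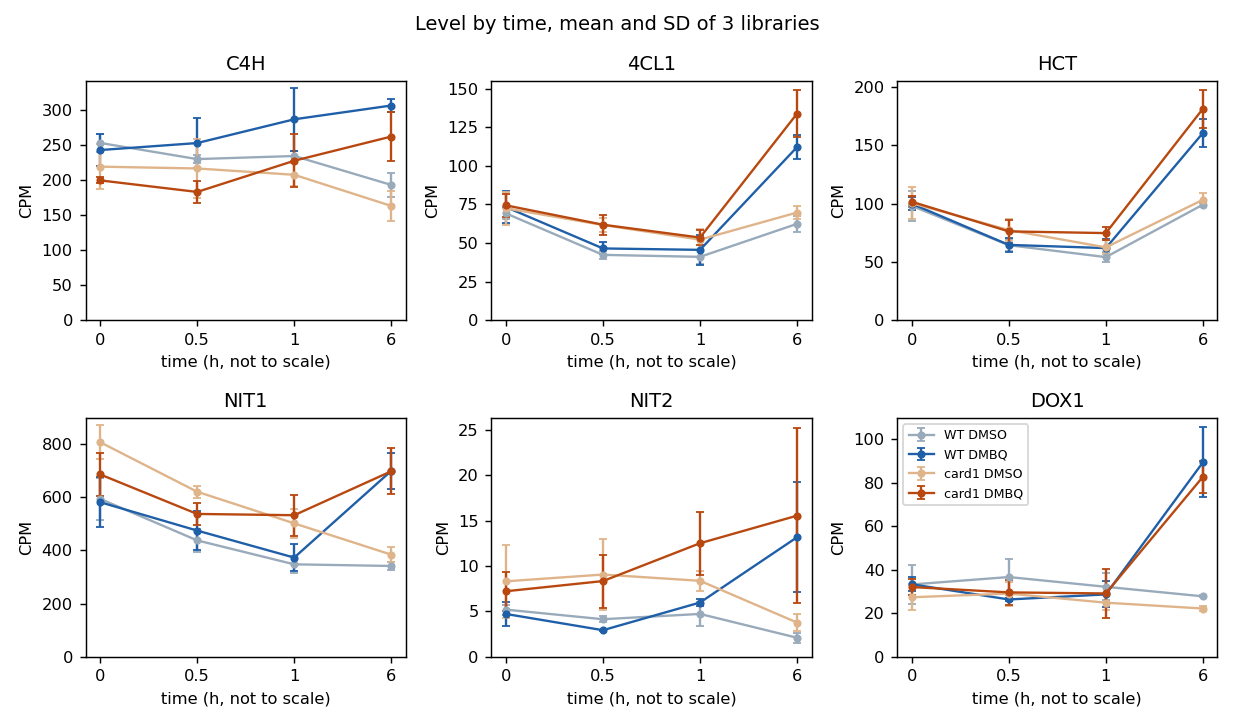
Mean CPM (y axis, from 0) of C4H, 4CL1, HCT, NIT1, NIT2 and DOX1 at 0, 0.5, 1 and 6 h (x axis, equally spaced) in the 4 combinations of genotype and agent; bars are SD of 3 libraries. The DMBQ and DMSO means part at 6 h in both genotypes, for NIT1 at 698 and 384 CPM in card1.

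An oxylipin enzyme and protease inhibitors are described next, with other members singly known from defence. They were no list, and the list for defence and salicylic acid held no member and had 0 of 9 genes called in card1 at 6 h (median log2 -0.22). DOX1 (AT3G01420), an alpha-dioxygenase that oxidises fatty acids to oxylipins, was at 23.1, 20.8 and 22.6 CPM in card1 with DMSO and at 74.9, 89.6 and 83.3 CPM with DMBQ. The libraries of WT held 27.3, 27.9 and 28.0 CPM with DMSO and 91.4, 72.2 and 104 CPM with DMBQ. The DMSO libraries were close together and each DMBQ library was far above them in both genotypes. The card1 difference was 1.90 ± 0.21 (log2 ± SE, edgeR adjusted p = 1.28e-07).

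KTI1 (AT1G73260), a Kunitz trypsin inhibitor, was at 85.2, 73.1 and 83.3 CPM in card1 with DMSO and at 140, 113 and 156 CPM with DMBQ. WT libraries held 81.6, 87.5 and 77.5 CPM with DMSO and 150, 129 and 178 CPM with DMBQ. Neither genotype had an overlap between agents, and the card1 difference was 0.76 ± 0.14 (log2 ± SE, edgeR adjusted p = 7.34e-04). The KTI1 call was lost when all libraries numbered 3 were left out. TI1 (AT2G43510), a trypsin inhibitor of another family, went from 4.42 ± 0.69 to 8.82 ± 1.2 CPM in card1 at 6 h (mean ± SD, n = 3; log2 0.98 ± 0.21, edgeR adjusted p = 0.0048). That call was lost without card1 DMSO replicate 1, at 0.88, and without card1 DMBQ replicate 3, at 0.86.

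A further 4 members rose in card1 with adjusted p-values between 0.0198 and 0.044. AT4G01700, of the chitinase family, went from 20.1 ± 1.1 to 31.2 ± 2.7 CPM (log2 0.62 ± 0.15, edgeR adjusted p = 0.0198). AT5G44390, a berberine-bridge-like oxidase by its annotation, went from 24.8 ± 2.6 to 38.6 ± 3.7 CPM (log2 0.63 ± 0.16, edgeR adjusted p = 0.031). YLS9, also named NHL10, a gene of senescence and pathogen responses, rested on 2 reads over the 3 card1 DMSO libraries and 31 over the DMBQ libraries (0.40, 0.33 and 2.34 CPM; log2 3.48 ± 0.89, edgeR adjusted p = 0.0349). AT4G22470, a protein of the protease inhibitor and lipid transfer family, went from 70.1 ± 7.3 to 124 ± 28 CPM in card1 (log2 0.81 ± 0.21, edgeR adjusted p = 0.044) and from 42.9 ± 5.0 to 114 ± 9.8 CPM in WT (SD, n = 3 each). Each of these calls was lost when single libraries were left out: AT4G01700 without any of the card1 DMSO libraries (0.60, 0.66 and 0.60) or without DMBQ replicate 2 (0.54), and AT5G44390 without any DMSO library (0.66, 0.68 and 0.55) or without DMBQ replicate 2 or 3 (0.60 and 0.56). YLS9 was not called without any DMSO library (3.91, 3.61 and 3.07) or without DMBQ replicate 3 (2.08), nor AT4G22470 without any DMSO library (0.76, 0.90 and 0.77) or without DMBQ replicate 2 or 3 (0.75 and 0.66).

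For 4 other members, higher with DMBQ in WT, card1 gave no call. AT2G38870, a protease inhibitor of the potato inhibitor I type, was at 53.4 ± 2.0 CPM with DMBQ and 28.1 ± 3.5 CPM with DMSO in WT, and at 38.6 ± 3.0 and 27.6 ± 3.2 CPM in card1 (log2 0.49 ± 0.19, edgeR adjusted p = 0.294). PRXCB, an apoplastic peroxidase of the oxidative burst, was at 106 ± 27 and 56.5 ± 4.0 CPM in WT and at 105 ± 24 and 78.4 ± 13 CPM in card1 (log2 0.42 ± 0.18, edgeR adjusted p = 0.385). PDF1.4, a defensin-like protein, was at 14.2 ± 2.1 and 6.32 ± 4.8 CPM in WT, with 1 DMSO library at 11.8 CPM, and at 8.86 ± 0.78 and 4.87 ± 2.4 CPM in card1 (log2 0.92 ± 0.37, edgeR adjusted p = 0.333). CRK13, a cysteine-rich receptor kinase, was at 9.79 ± 0.52 and 4.18 ± 0.39 CPM in WT and at 8.93 ± 1.2 and 6.88 ± 1.4 CPM in card1, where the groups overlapped (log2 0.36 ± 0.27, edgeR adjusted p = 0.718).

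Among members annotated as transporters or channels, DUR3 and PHT1;1 rose in card1, and AMT1;2, NIP2;1, SLAH2 and AT1G71140 were not called. They were no list and were put together after their values were seen. DUR3, the high-affinity symporter of urea and protons, was at 5.67, 4.47 and 5.52 CPM in card1 with DMSO and at 12.8, 12.8 and 15.4 CPM with DMBQ. The difference was 1.40 ± 0.26 (log2 ± SE, edgeR adjusted p = 8.93e-04). In WT DUR3 was at 7.71 ± 1.9 and 17.2 ± 0.30 CPM (SD, n = 3), again without overlap. PHT1;1, a phosphate importer of the root surface, was at 32.5, 38.3 and 38.1 CPM in card1 with DMSO and at 52.7, 60.8 and 62.2 CPM with DMBQ (log2 0.68 ± 0.13, edgeR adjusted p = 0.00178). Both transporters had higher values in every DMBQ library than in any DMSO library of their genotype. The PHT1;1 call was lost when all libraries numbered 2 were left out. AMT1;2, an ammonium transporter, was at 10.6 ± 2.0 and 19.8 ± 3.0 CPM in card1 without overlap (log2 0.87 ± 0.25, edgeR adjusted p = 0.0877). NIP2;1, a channel of the aquaporin family, was at 0.78 ± 0.33 and 2.44 ± 0.62 CPM (log2 1.71 ± 0.46, edgeR adjusted p = 0.0525). SLAH2, an anion channel homologue, differed by 0.32 ± 0.24 (log2 ± SE, edgeR adjusted p = 0.707). AT1G71140, of the MATE efflux family, differed by 0.37 ± 0.34 (log2 ± SE, edgeR adjusted p = 0.785).

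The member with the smallest adjusted p in card1 at 6 h was AT1G04350, annotated as an oxygenase that uses 2-oxoglutarate and Fe(II). It was at 29.3, 23.8 and 26.3 CPM in card1 with DMSO and at 52.6, 51.0 and 60.2 CPM with DMBQ. In WT the libraries held 37.4, 42.6 and 37.5 CPM with DMSO and 87.8, 75.2 and 66.1 CPM with DMBQ. The card1 levels lay lower than the WT levels with either agent at this time, and the card1 difference was 1.05 ± 0.12 (log2 ± SE, edgeR adjusted p = 3.46e-08).

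AT5G13260 and AT5G13250 are neighbours on the plus strand of chromosome 5 with 961 bases between them, annotated as a myosin and a RING finger protein. AT5G13260 was at 57.4, 51.0 and 51.2 CPM in card1 with DMSO and at 79.6, 87.8 and 95.1 CPM with DMBQ. The libraries of WT held 51.0, 50.6 and 51.0 CPM with DMSO and 107, 112 and 95.6 CPM with DMBQ. The DMSO libraries of both genotypes lay between 50.6 and 57.4 CPM, and the card1 difference was 0.72 ± 0.08 (log2 ± SE, edgeR adjusted p = 3.98e-08). AT5G13250, at a far lower level, was at 0.94, 1.23 and 0.83 CPM in card1 with DMSO and at 3.38, 3.30 and 4.17 CPM with DMBQ (log2 1.80 ± 0.37, edgeR adjusted p = 0.0028). The pair thus rose together in card1, but the AT5G13250 call was lost when all libraries numbered 1 or all numbered 3 were left out.

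SPP1 (AT1G51420), a sucrose-phosphatase of the last step of sucrose synthesis, was at 3.51, 2.81 and 3.03 CPM in card1 with DMSO and at 6.20, 6.17 and 8.74 CPM with DMBQ. WT libraries held 3.15, 3.57 and 2.70 CPM with DMSO and 7.88, 9.85 and 9.09 CPM with DMBQ. The groups did not overlap, and the card1 difference was 1.18 ± 0.21 (log2 ± SE, edgeR adjusted p = 4.34e-04). The SPP1 call was lost when all libraries numbered 3 were left out. AT3G54040, annotated as a PAR1 protein, was at 28.6, 36.3 and 37.8 CPM in card1 with DMSO and at 61.3, 57.5 and 56.7 CPM with DMBQ. In WT the libraries held 42.4, 47.4 and 52.7 CPM with DMSO and 92.9, 72.7 and 84.4 CPM with DMBQ. Each card1 group lay below the WT group of the same agent on average, and the card1 difference was 0.77 ± 0.14 (log2 ± SE, edgeR adjusted p = 6.19e-04). The AT3G54040 call was lost when all libraries numbered 1 or all numbered 2 were left out.

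**Figure D5:**
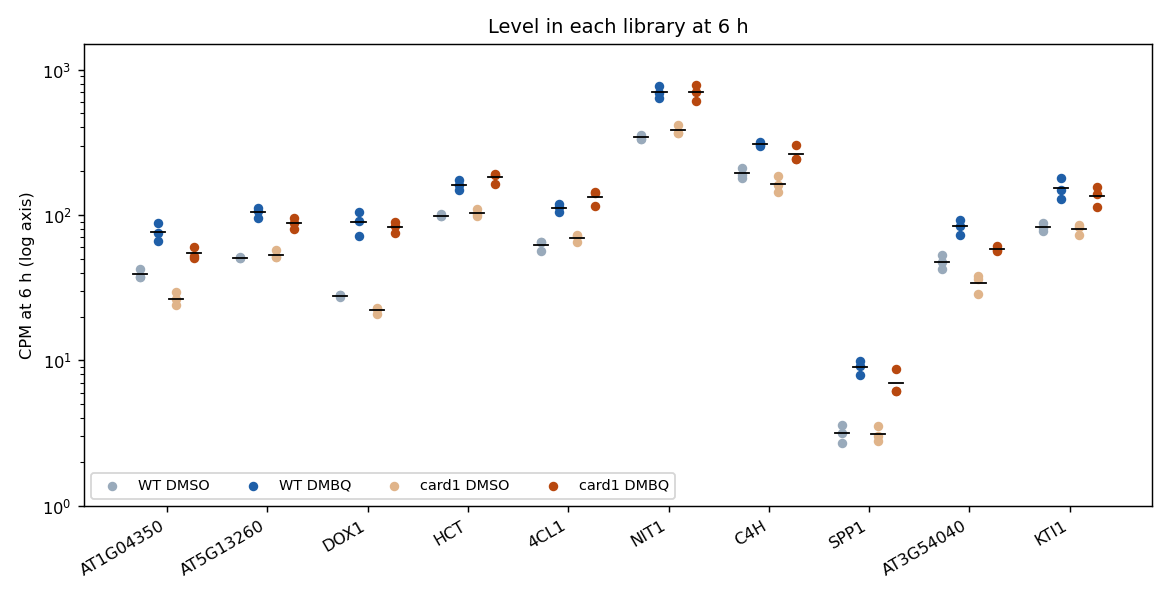
CPM at 6 h (y axis, log scale) in each of the 3 libraries of WT DMSO, WT DMBQ, card1 DMSO and card1 DMBQ for the 10 genes whose values are given for every library; black bars are means. In all 10 genes the DMBQ libraries of a genotype lie above its DMSO libraries.

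The remaining calls in card1 at 6 h were few. NAC003, a NAC transcription factor, went from 4.63 ± 0.73 to 7.48 ± 1.9 CPM (log2 0.66 ± 0.17, edgeR adjusted p = 0.0361), and AT3G17050, annotated as a pseudogene, from 15.3 ± 3.6 to 25.8 ± 4.9 CPM (log2 0.77 ± 0.18, edgeR adjusted p = 0.0179). GLP4, a germin-like protein, went from 1.95 ± 0.90 to 4.93 ± 1.1 CPM (log2 1.25 ± 0.33, edgeR adjusted p = 0.0402). EXLB1, an expansin-like protein of the cell wall, went from 7.74 ± 0.29 to 13.1 ± 4.1 CPM (log2 0.76 ± 0.20, edgeR adjusted p = 0.0466). GLP4 and EXLB1 were named after their values were seen. Both calls were lost when replicate 1 or 3 of either agent in card1 was left out, that of GLP4 also without replicate 2 of DMBQ and that of EXLB1 also without replicate 2 of DMSO. The NAC003 call was lost without card1 DMSO replicate 1 or 3 (0.62 and 0.57) and without DMBQ replicate 2 or 3 (0.69 and 0.43). The AT3G17050 call was lost without DMSO replicate 1 or 2 (0.76 and 0.59) and without DMBQ replicate 2 or 3 (0.75 and 0.62).

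For 46 of the 86 genes all 3 card1 DMBQ libraries at 6 h lay above all 3 DMSO libraries, 44 of them among the 76 tested, against 9.12% of all genes tested. The groups overlapped for 38 genes. For the other 2, ETC2 and U3D, all DMBQ libraries lay below the DMSO libraries. The share of all genes with that order was not counted. ETC2, a small MYB-like protein of trichome and root hair patterning, was at 0.54, 0.61 and 0.69 CPM with DMSO and 0.32, 0.33 and 0.20 CPM with DMBQ in card1, on 16 and 9 reads. GSTZ1, a glutathione transferase of tyrosine breakdown, was at 58.4 ± 5.7 CPM with DMBQ and 35.6 ± 1.4 CPM with DMSO in WT and at 44.4 ± 3.4 and 44.5 ± 1.6 CPM in card1 (log2 -0.01 ± 0.13). AIG1, a GTP-binding protein of disease responses, was at 0.21, 0.12 and 0.51 CPM with DMSO in WT, and at 1.35, 0.96 and 7.72 CPM with DMSO in card1, where replicate 3 stood apart. Its R at 6 h was 0.904 in WT and -0.685 in card1, where the DMBQ and DMSO libraries overlapped. CYP71A12, a P450 of camalexin and indole-carbonyl nitrile synthesis, was at 0.40, 0.44 and 0.97 CPM with DMSO and 0.08, 0.44 and 0.10 CPM with DMBQ in card1. ETC2, GSTZ1, AIG1 and CYP71A12 were picked for their low card1 responses at 6 h, so these are descriptions. The difference between genotypes carries no test because its WT part chose the genes.

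Whether the genes were late in card1 too was tested directly, as the response at 6 h minus the mean of the responses at 0.5 and 1 h. The response grew for 12 of the 76 members tested and shrank for none, against 0.237% of all genes called higher (edgeR's quasi-likelihood test, 3 libraries per group). The count was 5, 4 and 5 when all libraries numbered 1, 2 or 3 were left out, and which of the genes named here then kept the call was not tabulated. The 12 called with all libraries included all 3 members listed for monolignol synthesis. Their differences were 0.90 ± 0.15 for 4CL1 (edgeR adjusted p = 5.62e-04), 0.73 ± 0.15 for C4H (edgeR adjusted p = 0.00828) and 0.68 ± 0.13 for HCT (edgeR adjusted p = 0.00456). DOX1 was at 1.75 ± 0.26 (edgeR adjusted p = 2.41e-04), AT1G04350 at 1.00 ± 0.15 (edgeR adjusted p = 9.72e-05) and NIT1 at 0.91 ± 0.16 (edgeR adjusted p = 0.00115). AT5G13260, AT3G54040, PHT1;1, SPP1 and AT3G17050 followed, and ZFP5, a zinc finger factor of trichome and root hair initiation, had 2.59 ± 0.53 (edgeR adjusted p = 0.0103). ZFP5, at a mean of 1.29 CPM, was not called at 6 h itself (log2 1.36 ± 0.38, edgeR adjusted p = 0.0666). Its difference also held values below DMSO, log2 -1.40 at 0.5 h and -1.07 at 1 h, neither called. Among the 211 tested genes that met the 6 h condition in WT after an earlier rise, 14 were called for a growing response and 1 for a shrinking one. This contrast shares its 6 h libraries with the comparison above.

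Before 6 h few members moved in card1. At 1 h KTI1 alone was called, with 81.7, 103 and 79.9 CPM with DMSO and 144, 125 and 124 CPM with DMBQ (log2 0.58 ± 0.14, edgeR adjusted p = 0.0178), against 0.978% of all genes called higher. That is 1 member of 76, near the share over all genes, and the call was lost when all libraries numbered 1 or all numbered 3 were left out. At 0.5 h edgeR called 0 of the 76, with 4 at an unadjusted p under 0.05, against 0.136% of all genes called higher; DESeq2 called 1 higher, ATCG00330, an identifier with no entry in the annotation used. Of the 211 genes with an earlier rise in WT, 90 were called higher in card1 at 1 h.

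At 0 h in WT, edgeR called 0 of 76, with 2 at an unadjusted p under 0.05, against 0.126% of all genes called higher, and DESeq2 called 1, ATCG00330. In card1 at 0 h, 3.63% of all genes were called higher and 1.82% lower with DMBQ than with DMSO. None of the 76 members was called higher and 1 was called lower, AT1G60730, an oxidoreductase, at 24.1, 25.4 and 23.4 CPM with DMSO and 13.7, 13.4 and 19.8 CPM with DMBQ (log2 -0.62 ± 0.17, edgeR adjusted p = 0.0243). With replicate number as a block, which paired these libraries, 2 members were called lower, the second being AT4G12290. Over all genes, no call was left in this comparison without card1 DMSO replicate 2, 6 higher and 1 lower were left without DMSO replicate 1, and 2193 higher and 1875 lower were called without DMSO replicate 3. AT1G60730 was not called without either of those libraries, nor without card1 DMBQ replicate 1 or 2, and 3 members were called without DMSO replicate 3. The median R of all 86 genes in card1 at 0 h was -0.12, against -0.01 over all genes tested.

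The higher levels with DMBQ at 6 h met a fall with time in the solvent for many members. In card1 DMSO, 27 of the 76 members fell from 0 h to 6 h and 11 rose, where 21.2% of all genes fell and 20.4% rose (edgeR's quasi-likelihood test). In card1 DMBQ, 31 rose and 5 fell over the same time, where 15.8% of all genes rose and 16.8% fell. The 211 tested genes with an earlier rise in WT moved likewise. Of these, 80 fell and 20 rose in card1 DMSO, and 96 rose and 26 fell in card1 DMBQ. Elapsed time, handling and time of day cannot be told apart in these comparisons, and both share libraries with the 6 h comparison.

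The members took different courses to the same end. NIT1 fell by 1.18 ± 0.13 in card1 DMSO (log2 ± SE, edgeR adjusted p = 1.17e-09), from 808 ± 64 to 384 ± 29 CPM (SD, n = 3), and with DMBQ stood at 686 ± 82 CPM at 0 h and 698 ± 86 CPM at 6 h (log2 -0.08 ± 0.13, edgeR adjusted p = 0.661). C4H fell by 0.54 ± 0.12 in DMSO (edgeR adjusted p = 3.08e-04) and with DMBQ was 0.29 ± 0.12 above 0 h without a call (edgeR adjusted p = 0.0564). HCT was at 100 ± 14 CPM at 0 h and 103 ± 6.1 CPM at 6 h in DMSO (log2 -0.07 ± 0.10), with a dip to 62.4 ± 6.1 CPM at 1 h, and rose by 0.73 ± 0.10 over 0 h with DMBQ (edgeR adjusted p = 2.49e-07). DOX1 rose over 0 h by 1.26 ± 0.20 with DMBQ (edgeR adjusted p = 4.97e-06). AT3G54040 rose in both, by 0.72 ± 0.15 in DMSO (edgeR adjusted p = 1.63e-04) and by 1.91 ± 0.15 with DMBQ (edgeR adjusted p = 1.61e-13). Over the monolignol list, 12 of 18 genes fell and 1 rose in card1 DMSO from 0 h to 6 h.

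At 0 h the genotypes differed for some members. With both agents averaged at 0 h, 10 of the 76 were higher in card1 than in WT and 7 lower, against 10.1% and 7.75% of all genes (edgeR's quasi-likelihood test), shares close to those of the members. NIT1 was higher in card1 by 0.45 ± 0.09 (edgeR adjusted p = 4.63e-04), with 607 to 875 CPM in the 6 card1 libraries and 473 to 679 CPM in the 6 WT libraries, which overlapped. AT2G38870 was higher by 0.75 ± 0.13 (edgeR adjusted p = 9.62e-05), at 42.2 to 62.7 CPM in card1 and 23.7 to 37.7 CPM in WT, without overlap. AT3G17050 and AT5G44390 were also higher, and PHT1;1, AT3G54040, EXLB1 and NIP2;1 lower. NIP2;1 held no reads in 5 of the 6 card1 libraries at 0 h.

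By annotation, 78 of the 86 genes encode proteins and 7 do not, and 1 identifier, ATCG00330, had no entry. They lie on all 5 chromosomes, with 21, 15, 14, 19 and 16 genes on chromosomes 1 to 5. Besides both adjacent pairs, KTI1 and AT1G73210 lie on the minus strand of chromosome 1 with 16145 bases and 4 genes between them. The median transcript length was 1402 bases over the members and 1754 over all genes tested.

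Lists of other responses follow, and none of them as written holds a member. Over all genes tested, 0.832% were called higher in card1 at 6 h. The members GSTZ1, a glutathione transferase, and NAC003, a NAC factor, were not on the lists. Of 24 glutathione S-transferases tested 3 rose, GSTU8, GSTU22 and GSTU25, all of which were past the early threshold in WT. In WT at 6 h the median log2 fold change of this list was 0.65, against 0.49 for the monolignol list. R reached 0.6 in WT at 6 h for 12 of its 26 genes and for 5 of the 18 monolignol genes. The difference between these lists was not tested. Of 9 stress and senescence NAC factors 2 rose, NAC019 and NAC102. Of 8 genes of sulfate assimilation and glutathione synthesis 1 rose, GSH1. None of the genes listed for endoplasmic reticulum chaperones, defence and salicylic acid or the abscisic acid response was called, out of 9, 9 and 8 tested. Among the root markers RHS19, a root hair gene, fell by 0.94 ± 0.23 in card1 (edgeR adjusted p = 0.0289).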

How the data were processed

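mRNA of whole seedlings was sequenced in 48 libraries. The authors deposited raw counts of reads per gene, 1 column per library, which were used as deposited. HISAT2 2.1.0, HTSeq 0.6.1 and the genome TAIR10 are named in the submitters' processing notes; the annotation version and strand setting were not given in the sources used here, which leaves counts of overlapping genes, antisense genes and near copies uncertain. Besides 33602 genes, 5 entries named no gene, took 13.6 to 20.7% of all entered reads (6.53 to 13.3% not unique) and were left out. Names, lengths and windows came from RefSeq's TAIR10.1, with an entry for 97.7% of identifiers.

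Tests used edgeR 4.0.16 (R 4.3.3): filterByExpr with a minimum count of 10 (19839 genes), TMM factors (0.933 to 1.088), a robust quasi-likelihood fit of all 48 libraries with 16 group means, and Benjamini-Hochberg adjustment over all genes tested, called at 0.05. SE is the log2 fold change divided by the root of the test's F. The code was tested on simulated data. In all 48 replicate pairs the chi-square exceeded its degrees of freedom, by a ratio of 2.07 to 15.6. Replicate numbers paired libraries in some groups, by correlated deviations between the agents. In card1 these were correlated at 0 h (0.200 to 0.327), 0.5 h (0.153 to 0.305) and 1 h (0.161 to 0.304). In WT they were correlated at 0 h (0.164 to 0.204). At 6 h the correlations were 0.159, -0.005 and 0.172 in card1 and -0.034, -0.008 and 0.002 in WT.

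The members and the 16 gene lists (209 genes after 4 with no matching symbol were dropped) were chosen with earlier results of these data known. Genes named with values were the 20 with the smallest p in card1 at 6 h, the 12 with the largest R at 6 h among those of at least 5 CPM, members on a list, 3 genes on each side of the threshold, members called early in card1 and up to 8 with the smallest p for lateness; others are said to be chosen afterwards or stand in counts of 5 or fewer. Alternatives were DESeq2 1.42.0, RLE factors, other filters, a replicate block, the compared libraries alone, left-out libraries and, for the rule, other pseudocounts and thresholds. The one set added after seeing the data left out single card1 libraries of 0 h.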

Additional observations from a re-analysis of the deposited data

Results flagged for a closer look

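In card1, 12 members had a response at 6 h that differed from the mean of their responses at 0.5 and 1 h (edgeR's quasi-likelihood test of the difference, 3 libraries per group), each larger at 6 h. The count of 12 fell to 4 to 5 when all libraries of 1 replicate number were left out. The differences on the log2 scale were 1.0 for AT1G04350, 1.75 for DOX1, 0.62 for AT5G13260, 0.9 for 4CL1, 0.91 for NIT1 and 1.06 for AT3G54040. They were 0.68 for HCT, 0.92 for PHT1;1, 0.73 for C4H, 2.59 for ZFP5, 1.26 for SPP1 and 0.91 for AT3G17050. ZFP5 was not called in card1 at 6 h itself and lay below DMSO at 0.5 and 1 h.

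ETC2 and U3D were drawn out because every DMBQ library lay above every DMSO library in WT at 6 h and below in card1. The WT part follows from the choice, and the share of all genes lying below in card1 was not counted. Mean levels over the 48 libraries were low, at 0.656 CPM for ETC2 and 0.829 CPM for U3D. R at 6 h in card1 was -0.33 for ETC2 and -0.33 for U3D. The difference between the genotypes carries no test here, because its WT part chose the genes. Over all genes, edgeR called 0 of 19839 for a genotype difference in the response at 6 h. U3D was at 1.35, 1.23 and 1.38 CPM with DMSO and 0.64, 0.88 and 1.02 CPM with DMBQ in card1.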

How the results depend on the processing

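Of 28 named genes in the model, 21 were called in card1 at 6 h, and AT1G04350, AT5G13260, DOX1, HCT, 4CL1, NIT1, C4H and DUR3 kept the call under every alternative run; no value reversed. The 23 members called higher in card1 at 6 h became 12 to 22 when replicates or single libraries were left out and 22 with DESeq2. Of the counts for other comparisons, leaving out replicates or libraries gave 0 to 1 for the 1 call in card1 at 1 h, 4 to 5 for the 12 later responses, 0 to 5 for the 1 call in card1 at 0 h, 21 to 38 for the 38 calls in card1 DMSO over time and 10 to 19 for the 17 calls between genotypes at 0 h. With the compared libraries alone the counts were 2 in card1 at 1 h, 1 in card1 at 0.5 h, 1 in WT at 0 h and 0 in card1 at 0 h. DESeq2 gave 1 in card1 at 0.5 h and 1 in WT at 0 h. With replicate number as a block the count was 28 in card1 at 6 h and 16 for later responses. It was 24 between genotypes at 0 h and 2 in card1 at 0 h. The pairing in card1 at 6 h was uneven, with correlations of 0.159, -0.005 and 0.172. With the block PRXCB passed the threshold in card1 at 6 h.

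The set itself depends on the rule. A pseudocount of 0.5 gave 159 genes, of which 72 were among the 86, and a pseudocount of 5 gave 35, of which 28 were. A threshold of 0.8 at 6 h gave 32 and a threshold of 0.2 at 0.5 and 1 h gave 55. Leaving out replicates gave 131 to 148 genes, of which 56 to 60 were among the 86. Depth is a limit for the 21 genes under 1 CPM.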
